A study of Homo sapiens with 12 samples.

Results

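The genes described here are 9 regulators of mTORC1, the growth kinase complex that senses amino acids, and of insulin signalling upstream of it: DDIT4, SESN1, TSC1, TSC2, DEPTOR, RRAGD, EIF4EBP1, IRS1 and IRS2, of 11963 genes measured in all. They were read from 12 probe sets, each naming 1 of these genes only, and where a gene has several, the brightest on average is used. DDIT4 and IRS2 were picked because their responses differed between the cell lines compared, so their values are a description without a test, and the other 7 genes were tested. The cells were RCC4, a line from a human clear cell renal carcinoma in which VHL is inactive, VHL being the protein that marks hypoxia-inducible factor (HIF) alpha subunits for degradation. The line labelled Vec is the VHL-deficient one and the line labelled VHL had VHL put back. Each was kept for 6 h in full DMEM (control) or in DMEM without cystine (deprived), both with 10% serum, and each of the 4 groups had 3 arrays. Each genotype is 1 line, and whether a line is a clone is not given in the sources used here, so VHL status and other differences between the lines cannot be told apart. Dialysed serum is named for the deprived medium only. If the control serum was not dialysed, cystine loss and the change of serum cannot be told apart either. The labels call the replicates biological without naming separate cultures, so p-values measure the spread between these samples, which may be technical.

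As background, mTORC1 drives protein synthesis when growth factors, energy and amino acids are all present. Growth factors act through insulin and insulin-like growth factor receptors, whose substrates IRS1 and IRS2 recruit PI3-kinase. AKT then lifts the brake that the TSC1-TSC2 complex holds on RHEB, the activator of mTORC1. DDIT4 (also called REDD1), a stress-induced protein, favours that brake, and it is known as a target of both HIF and ATF4, the transcription factor of the amino acid response. Amino acids act through Rag GTPases such as RRAGD, which bring mTORC1 to the lysosome, and sestrins such as SESN1 oppose this step. DEPTOR binds and inhibits the kinase complex, and EIF4EBP1 (4E-BP1) is the repressor of cap-dependent translation that mTORC1 inactivates by phosphorylation.

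All values are log2 expression, and a gene is called where its adjusted p in limma's moderated test over all 11963 genes is under 0.05. Errors are SD over 3 arrays for levels and standard errors of the fit for differences. Array medians lay between 7.12 and 7.18, and arrays of one group correlated between 0.998 and 0.999 across genes. The VHL probe set was dim (mean 5.94) and is no check of the VHL label. Of 16 HIF targets listed as a check, 15 were measured and 12 were called lower in VHL than in Vec cells in control medium, as were 23% of all genes, with CA12 at -3.20, ADM at -3.56, EGLN3 at -3.24 and COXFA4L2 at -5.69. In the VHL line limma called 6 of the 15 HIF targets on deprivation, 5 rising and 1 falling (40% beside 11.6% of all genes). ADM gave 0.41 (limma adjusted p = 3.36e-04), VEGFA 0.75 (3.77e-04), EGLN1 -0.27 (0.00297) and SLC2A1 0.28 (0.00882). Each kept its call without any 1 array, but SLC2A1 gave 0.10 with its probe sets averaged (limma adjusted p = 0.259). In the Vec line only EGLN1 was called, at -0.18 (limma adjusted p = 0.0454), or 6.67% of the list beside 4.18% of all genes. That call was lost without any 1 of 9 arrays. It was also lost with quantile normalization (limma adjusted p = 0.054), median centring (0.055) and only the arrays compared (0.098). All 7 listed markers of renal epithelial carcinoma lay above 6.46, the 40th percentile of probe sets and the bound used here for dim signal. Of the blood markers 3 of 4 measured lay at or below it, the exception being HBB at 6.98, and so did all 4 endothelial markers. Summed on the linear scale, the blood markers ran from 262 to 289 in Vec deprived and from 254 to 294 in VHL deprived arrays. The renal markers ran from 35827 to 36605 in Vec deprived and from 32141 to 33199 in VHL deprived arrays, without overlap.

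DDIT4, the stress-induced mTORC1 brake, had a separate level in every group. Its level was 11.48, 11.44 and 11.44 on the Vec control arrays and 12.73, 12.71 and 12.67 on the Vec deprived arrays. In VHL cells it was 8.58, 8.48 and 8.48 in control medium and 10.81, 10.74 and 10.77 in deprived medium. No 2 groups overlapped, and the order from low to high was VHL control, VHL deprived, Vec control and Vec deprived. Deprivation went with a 2.39-fold higher level in Vec cells (log2 1.25 ± 0.05, n = 3 per group) and a 4.80-fold higher level in VHL cells (2.26 ± 0.05). The responses differed by 1.01 ± 0.06 on the log2 scale, or 2.01-fold, the kind of difference DDIT4 was picked for. Even so, the deprived VHL cells stayed 0.68 below the Vec cells in control medium. VHL cells were lower than Vec cells by 7.66-fold in control medium (-2.94 ± 0.05) and by 3.81-fold in deprived medium (-1.93 ± 0.05). The line with the smaller response was also the brighter one: 1.86% of probe sets were brighter than DDIT4 in Vec deprived and 9.42% in VHL deprived cells. Whether the array responds less steeply at such brightness was not tested, and the highest value of any probe set was 14.79.

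**Figure D1:**
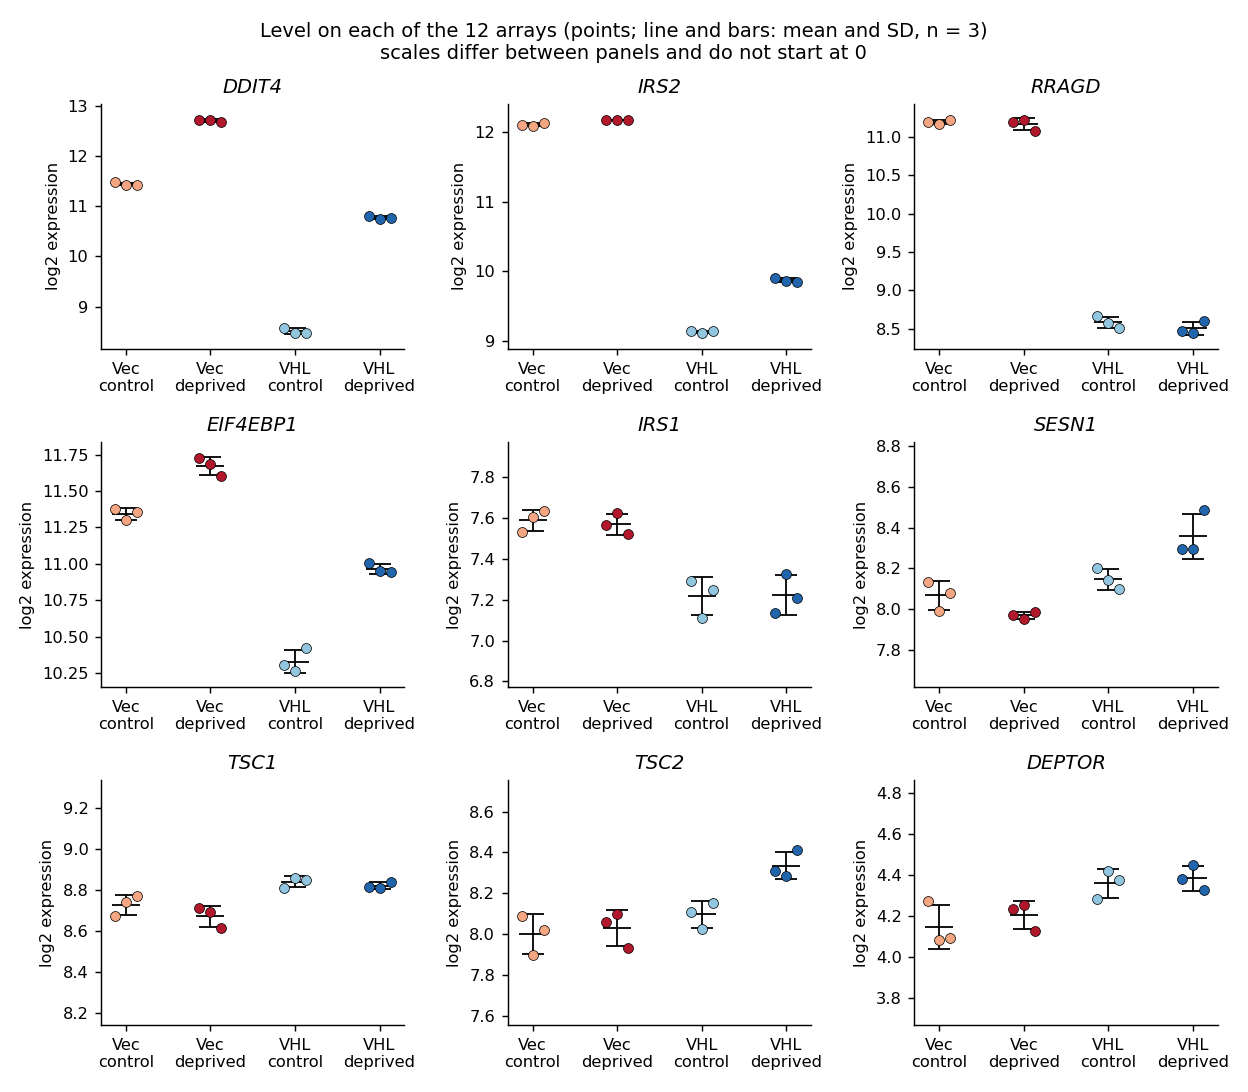
Log2 expression (vertical axis, a separate range in each panel) of the 9 genes in the 4 groups; points are single arrays, and the line and bars are the mean and SD of 3 arrays. DDIT4 takes 4 separate levels from 8.51 to 12.70, whereas RRAGD takes 2, near 11.2 in Vec and near 8.5 in VHL cells.

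IRS2, the second of the insulin receptor substrates, was close to level in Vec cells and higher on deprivation in VHL cells. The Vec control arrays read 12.10, 12.09 and 12.13 and the Vec deprived arrays 12.17, 12.18 and 12.17, a difference of 0.07 ± 0.04. The VHL control arrays read 9.13, 9.11 and 9.13 and the VHL deprived arrays 9.90, 9.86 and 9.85, which is 1.67-fold higher (0.74 ± 0.04). The arrays of deprived and control medium did not overlap in either line, but the step in VHL cells was the larger, and the responses differed by 0.68 ± 0.06. VHL cells were lower by 7.91-fold in control medium (-2.98 ± 0.04) and by 4.94-fold in deprived medium (-2.31 ± 0.04), so deprived VHL cells remained 2.24 below Vec control cells. In Vec cells 3.26% of probe sets were brighter than IRS2 on deprivation, against 17.2% in VHL cells, and the part of brightness in this difference was not tested either. The dimmer of the IRS2 probe sets gave the same pattern, with 0.05 ± 0.06 in Vec and 0.66 ± 0.06 in VHL cells for deprivation, and -2.98 ± 0.06 for VHL against Vec cells in control medium.

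IRS1, the first described insulin receptor substrate, was the member of the pair with the smaller line difference. It read 7.53, 7.60 and 7.63 in Vec control, 7.57, 7.62 and 7.52 in Vec deprived, 7.29, 7.11 and 7.25 in VHL control and 7.14, 7.33 and 7.21 in VHL deprived cells. Every VHL array lay below every Vec array, while the media overlapped within each line. IRS1 was lower in VHL cells by 1.29-fold in control medium (-0.37 ± 0.06) and by 1.27-fold in deprived medium (-0.35 ± 0.06), with limma adjusted p-values of 2.24e-04 and 4.03e-04. The median size of these differences over all genes was 0.15 and 0.16. Deprivation changed it by -0.02 ± 0.06 in Vec cells (95% interval from -0.15 to 0.12, limma adjusted p = 0.924) and by 0.01 ± 0.06 in VHL cells (from -0.13 to 0.14, limma adjusted p = 0.969).

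RRAGD, a Rag GTPase of the amino acid branch, showed the largest line difference among the 7 tested genes. Its arrays read 11.19, 11.16 and 11.21 in Vec control and 11.19, 11.22 and 11.08 in Vec deprived cells. In VHL cells they read 8.67, 8.58 and 8.51 in control and 8.47, 8.45 and 8.60 in deprived medium. The lines were far apart and the media overlapped within each. RRAGD was lower in VHL cells by 6.08-fold in control medium (-2.60 ± 0.06) and by 6.29-fold in deprived medium (-2.65 ± 0.06), with limma adjusted p-values of 1.38e-12 and 1.19e-12. A second RRAGD probe set gave -2.95 ± 0.10 and -2.67 ± 0.10 for the same comparisons. The deprivation response was -0.03 ± 0.06 in Vec and -0.08 ± 0.06 in VHL cells, called in neither (limma adjusted p = 0.875 and 0.459). In VHL cells the second probe set gave the opposite sign, 0.26 ± 0.10 (limma adjusted p = 0.122), so no direction is given for RRAGD on deprivation.

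EIF4EBP1, the translational repressor, rose on deprivation in both lines. Its arrays read 11.38, 11.30 and 11.36 in Vec control, 11.73, 11.69 and 11.60 in Vec deprived, 10.30, 10.26 and 10.42 in VHL control and 11.00, 10.95 and 10.94 in VHL deprived cells. No groups overlapped, and their order was that of DDIT4. The rise was 1.25-fold in Vec cells (0.33 ± 0.05) and 1.56-fold in VHL cells (0.64 ± 0.05), with limma adjusted p-values of 0.00409 and 9.32e-06. The difference between these rises was 0.31 ± 0.08 with a 95% interval from 0.14 to 0.47, and it was not called (limma adjusted p = 0.211). With an intensity trend and robust moderation of the variance it was called (limma adjusted p = 0.0350). VHL cells were lower by 2.02-fold in control medium (-1.02 ± 0.05) and by 1.63-fold in deprived medium (-0.71 ± 0.05), with limma adjusted p-values of 4.63e-09 and 1.48e-07.

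SESN1, a sestrin and target of p53, moved by little. The arrays read 8.14, 7.99 and 8.08 in Vec control, 7.97, 7.95 and 7.99 in Vec deprived, 8.20, 8.14 and 8.10 in VHL control and 8.29, 8.29 and 8.48 in VHL deprived cells. The VHL deprived arrays were the highest and overlapped no other group, whereas the control arrays of both lines overlapped. In VHL cells SESN1 rose 1.16-fold on deprivation (0.21 ± 0.06, limma adjusted p = 0.0380), and in Vec cells it gave -0.10 ± 0.06 (limma adjusted p = 0.462). The responses differed by 0.31 ± 0.08, which was not called (limma adjusted p = 0.279). The rise in VHL cells lost its call on leaving out VHL control replicate 1 (adjusted p = 0.0589), 2 (0.0960) or 3 (0.0996), VHL deprived replicate 3 (0.132), Vec control replicate 3 (0.0520) or Vec deprived replicate 1 (0.0517) or 2 (0.0528), and likewise with each array centred on its median (0.0591) or fitted on only the arrays compared (0.0948). SESN1 was higher in VHL than in Vec cells in deprived medium, by 0.39 ± 0.06 (limma adjusted p = 1.09e-04), and gave 0.08 ± 0.06 in control medium (limma adjusted p = 0.326).

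TSC1 and TSC2, the subunits of the brake on RHEB, differed by at most 1.24-fold in any comparison. TSC1 read 8.67, 8.74 and 8.77 in Vec control, 8.71, 8.69 and 8.61 in Vec deprived, 8.81, 8.86 and 8.85 in VHL control and 8.82, 8.81 and 8.84 in VHL deprived cells. Media overlapped within each line, and all VHL arrays lay above all Vec arrays. Deprivation gave -0.06 ± 0.05 in Vec and -0.02 ± 0.05 in VHL cells, also uncalled (limma adjusted p = 0.604 and 0.847). TSC1 was higher in VHL cells in deprived medium by 0.15 ± 0.05 (limma adjusted p = 0.0148, and 0.0602 without Vec deprived replicate 3). In control medium the difference of 0.11 ± 0.05 was not called (limma adjusted p = 0.0617), but it was with quantile normalization (0.0388) or median centring (0.0249), with probe sets averaged per gene (0.0478) and without dim genes (0.0314).

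TSC2, the GTPase-activating subunit, read 8.09, 7.90 and 8.02 in Vec control, 8.06, 8.10 and 7.93 in Vec deprived, 8.11, 8.03 and 8.15 in VHL control and 8.31, 8.29 and 8.41 in VHL deprived cells. Only the VHL deprived arrays stood apart from the other groups. On deprivation TSC2 rose 1.18-fold in VHL cells (0.24 ± 0.06, limma adjusted p = 0.0311) and gave 0.03 ± 0.06 in Vec cells (limma adjusted p = 0.880), while the difference of 0.21 ± 0.09 between the responses was not called (limma adjusted p = 0.480). The rise lost its call on leaving out VHL control replicate 1 (adjusted p = 0.0771) or 2 (0.114) or VHL deprived replicate 1 (0.0653) or 3 (0.108), and with the mean of both TSC2 probe sets (0.172, adjusted p = 0.0665). TSC2 was higher in VHL cells in deprived medium by 0.30 ± 0.06 (limma adjusted p = 0.00143), or by 0.15 with both probe sets averaged (0.0442), and gave 0.10 ± 0.06 in control medium (limma adjusted p = 0.262). The other TSC2 probe set is dim, between 4.43 and 4.76 on all arrays, and gave 0.11 for deprivation in VHL cells (limma adjusted p = 0.385) and -0.01 for VHL against Vec cells in deprived medium (limma adjusted p = 0.919).

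DEPTOR, the inhibitor within the mTOR complexes, was dim throughout, between 4.08 and 4.45, at the 5.1 percentile of probe sets. Its values cannot show whether the transcript changed or was present. The fit called it higher in VHL cells in control medium (0.21 ± 0.06) and in deprived medium (0.18 ± 0.06), with limma adjusted p-values of 0.0146 and 0.0334. The call in control medium was lost without VHL control replicate 2 (adjusted p = 0.0617) or Vec control replicate 2 (0.0611) or 3 (0.0610). The call in deprived medium was lost without VHL deprived replicate 1 (0.0630) or 2 (0.120) or Vec deprived replicate 1 (0.0517) or 3 (0.125). Deprivation gave 0.06 ± 0.06 in Vec cells and 0.03 ± 0.06 in VHL cells, called in neither (limma adjusted p = 0.736 and 0.849).

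Of the 7 tested genes, EIF4EBP1 alone was called on deprivation in Vec cells, where 4.18% of all genes were called (2.11% higher and 2.06% lower). In VHL cells EIF4EBP1, SESN1 and TSC2 were called, all higher, where 11.6% of all genes were called (6.16% higher and 5.48% lower). No difference between the responses was called by limma (3 at an unadjusted p under 0.05), against 0.134% of all genes (0.125% higher and 0.00836% lower). The share of all genes under that unadjusted bound was not counted, here or for the lists below. The median response was -0.02 in Vec cells and 0.03 in VHL cells, beside 0.01 in both over all genes. Between the lines 4 of 7 were called in control medium, 1 higher and 3 lower, where 46.1% of all genes were called (23.1% higher and 23% lower). All 7 were called in deprived medium, 4 higher and 3 lower, where 47.2% of all genes were (24.2% higher and 23% lower). RRAGD, EIF4EBP1 and IRS1 were lower in VHL cells in both media. SESN1, TSC1 and TSC2 were called higher in deprived medium. These counts hold DEPTOR, called higher in both media at a dim signal that settles no direction. The arrays of the media did not overlap for 2 of the 7 in Vec cells (EIF4EBP1 higher and SESN1 lower), where this held for 22.7% of all genes (11.9% higher and 10.7% lower), and for 3 in VHL cells, where it held for 30.6% (16.5% higher and 14% lower). The arrays of the lines did not overlap for 5 of the 7 in control medium, 2 higher and 3 lower in VHL cells, beside 53.2% of all genes (26.7% higher and 26.5% lower). In deprived medium they did not overlap for all 7, beside 54.2% (27.9% higher and 26.4% lower). The median size of the difference was 0.21 in control and 0.35 in deprived medium, beside 0.15 and 0.16 over all genes.

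**Figure D2:**
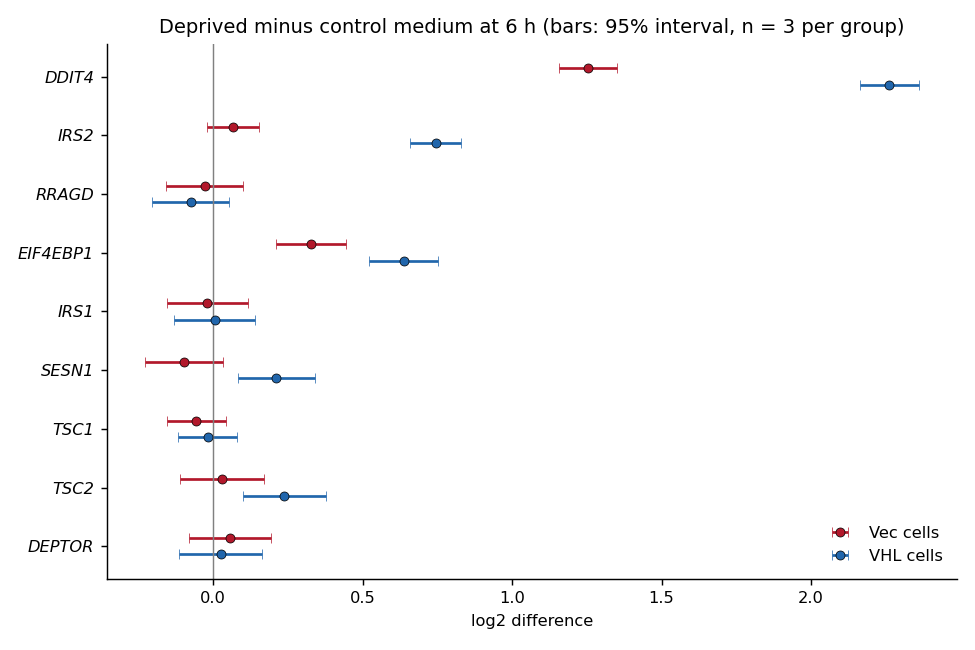
Log2 difference between deprived and control medium (horizontal axis) for the 9 genes in Vec and VHL cells; points are estimates and bars 95% intervals, with 3 arrays per group. DDIT4 and IRS2, picked for this pattern, lie at 2.26 and 0.74 in VHL cells, and EIF4EBP1 lies right of 0 in both lines.

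**Figure D3:**
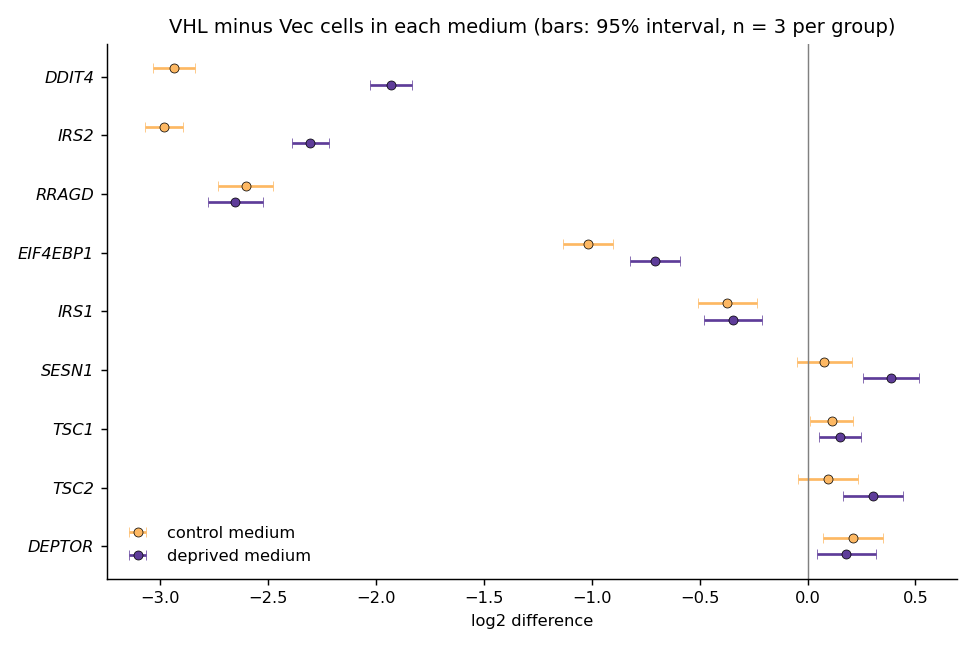
Log2 difference between VHL and Vec cells (horizontal axis) for the 9 genes in control and deprived medium; points are estimates and bars 95% intervals, with 3 arrays per group. DDIT4, IRS2 and RRAGD lie between -2.98 and -1.93, EIF4EBP1 at -1.02 and -0.71, IRS1 at -0.37 and -0.35, and the others between 0.08 and 0.39.

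The promoters of DDIT4, IRS2, IRS1, SESN1 and TSC2 are shown for these reasons. The first pair shared a far lower level in VHL cells, and IRS1 is the paralog of IRS2 with a smaller difference. SESN1 and TSC2 rose on deprivation in VHL cells. Of the 9 genes, 6 are in the RefSeq promoter table (GRCh38.p14), 5 of them with a window at the gene start used here. RRAGD, also far lower in VHL cells, EIF4EBP1 and DEPTOR are not in it, and TSC1 has no window at its gene start. Each line is the 250 bases before the RefSeq gene start, 5′ to 3′ on the gene's strand. Capitals mark 5-base cores of hypoxia response elements (ACGTG or GCGTG), the ATF4 composite element TGATGNAA and the E-box CACGTG, searched on both strands.
DDIT4, chr10:72273674-72273923, plus strand: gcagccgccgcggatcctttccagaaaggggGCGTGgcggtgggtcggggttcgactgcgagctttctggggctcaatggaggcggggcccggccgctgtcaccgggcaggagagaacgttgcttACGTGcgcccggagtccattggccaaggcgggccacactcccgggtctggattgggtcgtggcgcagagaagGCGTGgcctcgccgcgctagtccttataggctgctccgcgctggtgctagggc
IRS2, chr13:109786584-109786833, minus strand: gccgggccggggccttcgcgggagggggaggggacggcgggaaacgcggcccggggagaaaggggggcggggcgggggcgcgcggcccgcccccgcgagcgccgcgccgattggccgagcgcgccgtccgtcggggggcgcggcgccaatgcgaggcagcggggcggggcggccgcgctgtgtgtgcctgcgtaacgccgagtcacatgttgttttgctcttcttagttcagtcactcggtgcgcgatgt
IRS1, chr2:226799821-226800070, minus strand: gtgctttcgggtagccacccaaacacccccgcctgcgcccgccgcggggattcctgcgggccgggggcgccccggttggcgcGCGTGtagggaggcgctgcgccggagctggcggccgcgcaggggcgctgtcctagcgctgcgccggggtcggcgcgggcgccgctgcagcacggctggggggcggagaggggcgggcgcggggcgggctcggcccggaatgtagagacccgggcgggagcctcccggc
SESN1, chr6:109094847-109095096, minus strand: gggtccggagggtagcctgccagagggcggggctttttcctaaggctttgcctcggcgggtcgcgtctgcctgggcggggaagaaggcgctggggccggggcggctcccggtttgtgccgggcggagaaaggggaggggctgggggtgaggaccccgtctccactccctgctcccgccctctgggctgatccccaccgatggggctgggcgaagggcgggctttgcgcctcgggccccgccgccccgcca
TSC2, chr16:2047735-2047984, plus strand: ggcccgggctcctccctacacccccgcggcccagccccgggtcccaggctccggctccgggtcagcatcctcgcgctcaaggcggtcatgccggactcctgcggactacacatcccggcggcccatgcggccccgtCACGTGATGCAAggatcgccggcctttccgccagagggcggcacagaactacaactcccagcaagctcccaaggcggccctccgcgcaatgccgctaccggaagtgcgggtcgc
The DDIT4 window holds 1 ACGTG, at 125 to 121 bases before the start, and 2 GCGTG. The IRS2 and SESN1 windows hold none of the marked motifs, and IRS1 holds 1 GCGTG. In TSC2 the E-box CACGTG, which contains ACGTG on each strand, runs from 114 to 109 bases before the start, and a TGATGNAA match from 110 to 103 overlaps it. Over all 35116 promoter windows cut to the same length, 18.5% hold ACGTG, 32.2% GCGTG, 6.34% CACGTG and 3.14% TGATGNAA. The DDIT4 and IRS2 windows each hold 2 CCAAT boxes (CCAAT, in 32.0% of windows), and the other 3 hold none. GC boxes (GGGCGG, in 42.6% of windows) number 7 in SESN1, 5 in IRS2, 4 in IRS1, 1 in TSC2 and 0 in DDIT4. No match to the cyclic AMP response element TGACGTCA (1.65% of windows) or the FOXO element GTAAACA (2.98%) lies in these 5 windows. A match describes letters in this window and is not a site of binding.

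**Figure D4:**
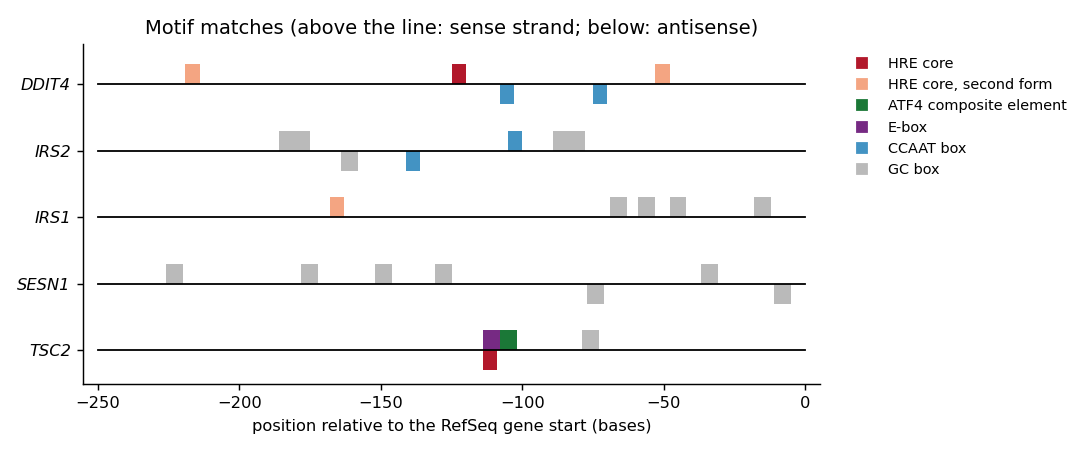
Motif matches in the 250 bases before the gene start of DDIT4, IRS2, IRS1, SESN1 and TSC2; the horizontal axis is the position in bases relative to the RefSeq gene start, and boxes above and below each line are matches on the sense and antisense strand. The ACGTG match of DDIT4 starts at 125 bases before the start; in TSC2 the sense ACGTG match is covered by the E-box that contains it.

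The rest of the mTORC1 pathway was described with a list of 46 genes, of which 31 were measured. In Vec cells limma called none of them on deprivation (6 at an unadjusted p under 0.05), beside 4.18% of all genes called. The median response was 0.01, as over all genes. In VHL cells 2 were called, 1 higher and 1 lower (6.45% beside 11.6% of all genes), with a median of -0.01 beside 0.01. EIF4E, the cap-binding factor that EIF4EBP1 holds, fell 1.44-fold (-0.53 ± 0.08, limma adjusted p = 0.00106), from 10.29 in control to 9.76 in deprived cells. Without _x_at and _s_at probe sets EIF4E gave -0.30 (limma adjusted p = 0.205), and with its probe sets averaged -0.52 (limma adjusted p = 0.0121). MLST8, a subunit of both mTOR complexes, rose by 0.19 ± 0.06 (limma adjusted p = 0.0472). That call was kept without Vec deprived replicate 1 or VHL control replicate 3 and lost without any 1 of the other 10 arrays, with adjusted p-values from 0.0506 to 0.176, and it was lost with median centring (0.0617) and with only the arrays compared (0.0971). No difference between the responses was called in this list (1 at an unadjusted p under 0.05), beside 0.134% of all genes called by limma.

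Between the lines 18 of the 31 genes were called in control medium, 6 higher and 12 lower in VHL cells, or 58.1% beside 46.1% of all genes, and the median size of the difference was 0.16 beside 0.15. RRAGA, a Rag GTPase that can pair with RRAGD, was lower, at -0.86 ± 0.06 (limma adjusted p = 3.73e-08), and LAMTOR2, part of the lysosomal anchor of the Rag proteins, was higher by 0.67 ± 0.05 (limma adjusted p = 7.95e-08). EIF4EBP2, a relative of EIF4EBP1, gave -0.45, PRKAG1 and PRKAA2, subunits of the energy sensor AMPK, -0.47 and -0.45, RPS6KB2, an S6 kinase, -0.34, and LAMTOR5 -0.24. NPRL2, part of a complex that turns off Rag signalling, gave -0.55 (-0.21 with its probe sets averaged), but 0.12 with its other probe set (limma adjusted p = 0.246), so its direction is not settled. In deprived medium 21 were called, 7 higher and 14 lower, or 67.7% beside 47.2% of all genes (median size 0.19 beside 0.16). There RRAGA gave -0.98, LAMTOR2 0.71 and EIF4EBP2 -0.49. EIF4E gave -0.63, or -1.12 without _x_at and _s_at probe sets and -0.79 with its probe sets averaged.

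The insulin and PI3-kinase list had 23 of 27 genes measured. TRIB3, a pseudokinase that binds AKT and is a known ATF4 target, rose 1.76-fold on deprivation in Vec cells (0.82 ± 0.07) and 2.31-fold in VHL cells (1.21 ± 0.07), with limma adjusted p-values of 2.04e-05 and 2.79e-07. The difference of 0.39 ± 0.10 between these rises was not called (limma adjusted p = 0.232). GRB10, an adaptor that inhibits the insulin receptor and is stabilised by mTORC1, rose by 0.31 ± 0.05 in Vec cells (limma adjusted p = 0.00311) and by 0.46 ± 0.05 in VHL cells (limma adjusted p = 6.41e-05). PHLPP1, a phosphatase of AKT, fell by 0.50 ± 0.10 in Vec cells (limma adjusted p = 0.0165). Its fall was not called without Vec control replicate 1 (adjusted p = 0.0678) or 2 (0.0592) or Vec deprived replicate 1 (0.0559) or 3 (0.0700), and its probe sets averaged gave -0.20 (0.199). These were the 3 calls in Vec cells (13% of the list beside 4.18% of all genes), and the median response was -0.05 beside 0.01.

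In VHL cells PIK3R3, a regulatory subunit of PI3-kinase, and PIK3CB, a catalytic one, were called lower beside the 2 rises, 17.4% of the list against 11.6% of all genes, with a median response of 0.03 beside 0.01. PIK3R3 gave -0.28 ± 0.07 (limma adjusted p = 0.0257), lost without VHL control replicate 2 (adjusted p = 0.101) or VHL deprived replicate 1 (0.0991) or 3 (0.0548), with only the arrays compared (0.0581), and -0.11 with its probe sets averaged (0.158). PIK3CB gave -0.18 ± 0.05 (limma adjusted p = 0.0449), kept without Vec control replicate 1 or 3 or VHL control replicate 3 and lost without any 1 of the other 9 arrays (0.0511 to 0.136), as with quantile normalization (0.0525), with its probe sets averaged (0.142), with only the arrays compared (0.0725) and without _x_at and _s_at probe sets (0.0585). No difference between the responses was called in this list (5 at an unadjusted p under 0.05), beside 0.134% of all genes called by limma.

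Between the lines 11 of the 23 genes were called in control medium, 5 higher and 6 lower in VHL cells, or 47.8% beside 46.1% of all genes, and the median size of the difference was 0.11 beside 0.15. PIK3CD, a catalytic subunit of PI3-kinase, gave -1.18 ± 0.07 (limma adjusted p = 1.26e-08), or -0.62 with its probe sets averaged. TRIB3 gave -0.85, IGF1R, a receptor that signals through the IRS proteins, -0.70 and FOXO3, a transcription factor held back by AKT, -0.45. PIK3R1, the main regulatory subunit, was higher by 0.88 ± 0.08 (limma adjusted p = 6.48e-07), PIK3R3 by 0.76, PIK3CB by 0.43 and SHC1, an adaptor, by 0.31. With probe sets averaged, PIK3R1 gave 0.61, PIK3R3 0.29, PIK3CB 0.23, SHC1 0.24 and IGF1R -0.52. In deprived medium 13 were called, 7 higher and 6 lower, or 56.5% beside 47.2% of all genes (median size 0.28 beside 0.16). There PIK3CD gave -1.14, PIK3R1 1.03 and IGF1R -0.50, or -0.69, 0.77 and -0.38 with probe sets averaged.

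**Figure D5:**
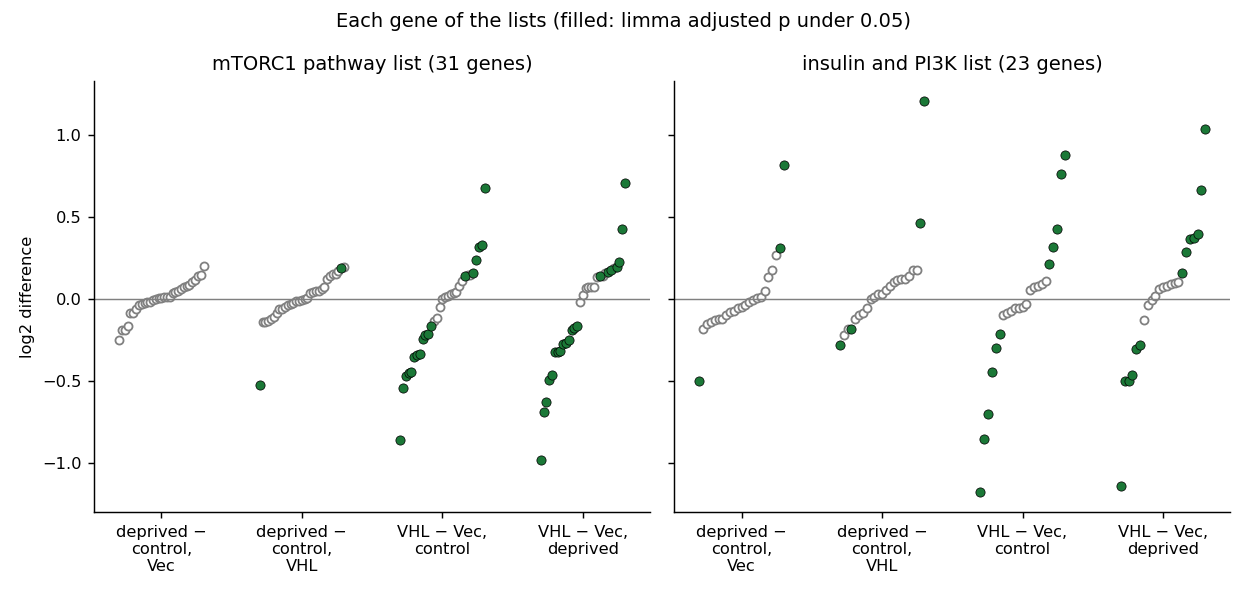
Log2 differences (vertical axis) of the measured genes of the mTORC1 list (31) and of the insulin and PI3-kinase list (23) in 4 comparisons (horizontal axis); each point is a gene, filled where limma's adjusted p is under 0.05. The deprivation responses have 0 and 2 filled points in the first list and 3 and 4 in the second, against 18, 21, 11 and 13 between the lines.

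Likeness to DDIT4 and IRS2 was measured as the root mean square difference between profiles, each centred on its own mean over the 12 arrays. Closest to DDIT4 were CXCL8, the chemokine interleukin 8, at 0.36, FYN, a Src-family kinase, at 0.62, INHBA, an activin subunit, at 0.65, IL6, an inflammatory cytokine, at 0.66 and MAFF, a small MAF transcription factor, at 0.67, beside a median of 1.52 over all other genes. CXCL8 was higher on deprivation by 0.55 in Vec and by 2.16 in VHL cells, values set beside 1.25 and 2.26 for DDIT4. For the same comparisons FYN gave 0.59 and 0.67, INHBA 0.33 and 1.43, IL6 0.31 and 1.07 and MAFF 0.35 and 0.69. Closest to IRS2 were SRPX at 0.19, F3, the tissue factor of coagulation, at 0.23, FYN at 0.24, VSTM4 and SCG5 at 0.28 each, beside a median of 1.35. SRPX gave 0.04 and 0.29 on deprivation in Vec and VHL cells and -2.56 for VHL against Vec cells in control medium. On deprivation F3 gave -0.22 and 0.40, FYN 0.59 and 0.67, VSTM4 -0.17 and 0.40 and SCG5 0.45 and 0.41, beside 0.07 and 0.74 for IRS2. The line difference enters this measure as well as the response, so a close gene need not share the response. These genes were chosen by their profiles, so their values are a description.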

How the data were processed

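RNA was measured on 12 single-colour expression arrays, with targets made from total RNA and labelled with biotin, per the labels. The deposited values are log2 expression values, 1 per probe set and array; this scale was read from the values, and whether and how the authors normalized them is not given in the sources used here. No scaling or filter was added to them. Detection calls were not used here, and the number of arrays limits the precision. Of 22215 probe sets, 19064 name 1 gene, 1043 several and 2108 none in the platform annotation. Symbols were updated through RefSeq (GRCh38.p14) for 19052, and 11963 genes were each represented by their brightest probe set, a choice for the 4310 genes with more than 1. A model with a mean for each group was fitted to the 12 arrays with limma 3.58.1 (R 4.3.3), tested on simulated data first. P-values are two-sided with Benjamini-Hochberg adjustment across all 11963 genes. The 5 comparisons were the response to deprivation in each line, the VHL response minus the Vec response, and the lines against each other in control and in deprived medium. Comparisons that share a group also share its arrays.

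The 9 genes, the HIF check, marker, mTORC1 and insulin lists, and the tests were chosen with earlier results of these data known. The genes named are the 9, up to 8 called genes of the mTORC1 and of the insulin list per comparison by smallest adjusted p, up to 4 of the HIF list, VHL, and the 5 genes most like DDIT4 and like IRS2. HBB, and the values given for genes in comparisons where they were not called, were added after values were seen. Alternatives were quantile normalization, median centring, leaving out dim genes, averaging a gene's probe sets, single probe sets, dropping probe sets ending in _x_at or _s_at, an intensity trend with robust moderation, only the arrays compared, the replicate number as a block, and each array left out in turn. Running them for the named genes of the lists was added after seeing the data.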

Additional observations from a re-analysis of the deposited data

How the results depend on the processing

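The differences of DDIT4 and IRS2 kept their sign in every comparison under all alternatives that could give a value. DDIT4, IRS2, SESN1 and RRAGD have only _s_at probe sets and DEPTOR is dim, so they have no value without _x_at and _s_at probe sets and without dim genes, respectively. Among the called differences of the 7 tested genes, and the alternatives that gave them a value, the sign turned only for TSC2 in deprived medium, when its other probe set was taken. TSC2 with that probe set gave -0.136 for VHL against Vec cells in control medium, -0.011 in deprived medium and -0.019 for deprivation in Vec cells, both on its own and without _x_at and _s_at probe sets, and -0.02 in control medium with the mean of its probe sets. RRAGD gave 0.256 for deprivation in VHL cells and 0.28 for the difference between responses with its second probe set, and 0.091 and 0.116 with the mean of both. For deprivation in VHL cells, DEPTOR gave -0.004 with median centring and -0.003 with quantile normalization, and IRS1 -0.023 and -0.025. IRS1 gave -0.014 for the difference between responses with quantile normalization. Leaving out 1 array at a time, uncalled differences close to 0 changed sign: on deprivation in Vec cells, TSC2 ran from -0.023 to 0.08, IRS1 from -0.048 to 0.006 and RRAGD from -0.058 to 0.015. In VHL cells, IRS1 ran from -0.047 to 0.049 and DEPTOR from -0.014 to 0.055. For the difference between responses, IRS1 ran from -0.027 to 0.069 and DEPTOR from -0.094 to 0.002. Without _x_at and _s_at probe sets NPRL2 gave 0.116 in control and 0.166 in deprived medium for VHL against Vec cells, and SLC2A1, of the HIF list, -0.084 in place of 0.278 for deprivation in VHL cells. The cause of these changes was not tested.

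Counts of called genes among the tested members and in the mTORC1 and insulin lists moved by over 1.5 times as follows. For deprivation in VHL cells, the mTORC1 list had 2 calls, but 1 with only the arrays compared, 1 with the replicate block, 4 with trend and robust moderation, 5 without dim genes, 0 without _x_at and _s_at probe sets and 1 to 3 without any 1 array. The insulin list had 4, but 2 with the mean of probe sets, 2 with only the arrays compared and 2 to 4 without any 1 array. The tested members had 3, but 1 without _x_at and _s_at probe sets and 1 to 3 without any 1 array. For deprivation in Vec cells the mTORC1 list had 0, but 1 with the mean of probe sets, 1 with only the arrays compared, 2 with trend and robust moderation, 1 without dim genes and 0 to 1 without any 1 array. For the difference between responses 1 tested member, EIF4EBP1, was called with trend and robust moderation. Between the lines, leaving out _x_at and _s_at probe sets gave 9 mTORC1 list calls in control and 10 in deprived medium, and 4 tested members in deprived medium; fewer genes are measured then, and others lost their call with another probe set (TSC2 above, and RPS6 at -0.103 in deprived medium).

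Residuals of arrays sharing a replicate number correlated between -0.268 and 0.235 over 18 pairs (median 0.053). Between other numbers they ran from -0.35 to 0.291 over 36 pairs (median -0.018). These ranges overlap, 5 of 12 arrays were closest to one of their own number, and no clear pairing by number was seen. With the replicate block, only 1 of the counts above moved by over 1.5 times. It was the mTORC1 list count for deprivation in VHL cells, through MLST8 (adjusted p = 0.0546 in limma). PIK3CB in VHL cells (0.0564) and EGLN1, of the HIF list, in Vec cells (0.0715) lost their calls on deprivation as well. Dim signal limits DEPTOR and the second TSC2 probe set.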
